A study of Mus musculus with 3 samples.

Results

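The genes of the AP-1 family were examined as possible sites of c-FOS binding in a mouse basal cell carcinoma line. They are Fos, Fosb, Fosl1 and Fosl2, which encode the FOS-type subunits, and Jun, Junb and Jund, which encode the JUN-type subunits. A fixed window on the mm9 assembly was assigned to each gene, and a c-FOS peak was counted in a window when its midpoint lay there. Of 15011 listed peaks, 55 lay in the 7 windows, which measured 100, 110 or 130 kb and 750 kb together. The windows follow gene names and use no peak value, but the family was picked for study with earlier results of these data known, so the background shares below are descriptions. Their limits were 86.76 to 86.87 Mb on chromosome 12 for Fos, 19.83 to 19.93 Mb on chromosome 7 for Fosb, 5.40 to 5.50 Mb on chromosome 19 for Fosl1 and 32.38 to 32.51 Mb on chromosome 5 for Fosl2. Those of the JUN-type genes were 94.66 to 94.77 Mb on chromosome 4 for Jun, and 87.45 to 87.55 Mb and 73.17 to 73.27 Mb on chromosome 8 for Junb and Jund.

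Chromatin came from ASZ001, an established line, of the genotype RasV12_TGFbR1kd: it carried the activated RAS mutant RasV12 and an shRNA that lowers the TGF-beta receptor TGFbR1. It was crosslinked 6 days after induction with Dox and 4OHT. Chromatin immunoprecipitation followed by sequencing (ChIP-seq) with a rabbit monoclonal antibody to c-FOS (clone 9F6) was done in 2 samples, and 1 input sample received no antibody. All 3 samples had the same genotype and treatment, so no value here describes a change on induction. The authors deposited 1 list of peaks for both ChIP samples, with a start and an end but no height. No value below therefore has a replicate error, and the depth behind a peak is unknown.

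AP-1 is a dimer of basic leucine zipper proteins. FOS-type proteins bind DNA as partners of JUN-type proteins, whereas JUN-type proteins can also pair with one another. The dimers recognise the TPA response element and, less well, the cAMP response element. Several family genes are known targets of AP-1 itself: c-JUN stimulates its own promoter, and Fosl1, which encodes FRA-1, is a known AP-1 target in RAS-transformed cells. Fos is an immediate-early gene, switched on within minutes of growth factor signalling through serum response factor and its ELK partners.

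The promoters of the genes with the fewest and the most peaks show which AP-1-like letters stand before the gene starts. The RefSeq sequences below (build GRCm38.p6) are the 250 bases before the annotated start of Fos, with no peak in its window, of Jun, with 1, and of Junb, with 18. Each is written 5′ to 3′ along the gene's own strand. Capitals mark matches to the motifs searched.

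Fos, chr12:85473640-85473889, plus strand: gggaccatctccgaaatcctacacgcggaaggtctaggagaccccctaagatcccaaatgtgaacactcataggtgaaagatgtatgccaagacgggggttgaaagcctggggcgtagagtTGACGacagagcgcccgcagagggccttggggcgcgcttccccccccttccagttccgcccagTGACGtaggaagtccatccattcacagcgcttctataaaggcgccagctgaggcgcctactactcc

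Jun, chr4:95052223-95052472, minus strand: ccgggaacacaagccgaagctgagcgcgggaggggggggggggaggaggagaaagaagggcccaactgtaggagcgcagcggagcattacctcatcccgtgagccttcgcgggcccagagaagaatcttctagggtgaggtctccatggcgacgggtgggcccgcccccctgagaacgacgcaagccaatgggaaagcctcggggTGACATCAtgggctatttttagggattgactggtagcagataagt

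Junb, chr8:84978749-84978998, minus strand: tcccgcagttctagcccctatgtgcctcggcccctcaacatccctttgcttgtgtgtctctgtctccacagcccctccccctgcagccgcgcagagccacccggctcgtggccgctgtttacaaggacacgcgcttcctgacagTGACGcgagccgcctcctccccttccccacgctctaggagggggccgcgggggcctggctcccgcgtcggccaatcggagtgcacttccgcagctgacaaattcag

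Both strands were searched for TGANTCA, a loose form of the TPA response element that accepts any base (N) in its middle. Also searched were the cAMP response element TGACGTCA, its shorter core TGACG and the variant TGACATCA known from the Jun promoter. The last motif was the CArG box bound by serum response factor. TGACG is part of TGACGTCA, so a match to the longer motif counts for both. Of the 7 members, 6 had an entry in the promoter table: Fos, Fosb, Fosl2, Jun, Junb and Jund. The Jund entry was much lower in G and C than the others and may belong to a start other than the main one, which was not checked, so its lack of matches says little about Jund. Within these 250 bases none of the 6 held TGANTCA, which occurred in 6.75% of the 32841 promoters of the table. Nor did any hold TGACGTCA (1.55%) or a CArG box (1.47%). Bases further upstream were not searched, so a CArG box or AP-1 site of Fos or another member there would have been missed. Jun was the member with TGACATCA, from base 45 to base 38 before its start, a motif found in 2.93% of all promoters. Fos held TGACG at 2 places, from base 129 to 125 and from base 66 to 62 before its start. Junb held it from base 106 to 102, and Fosb from base 60 to 56. TGACG was thus present in 3 of 6 members, against 17.8% of all promoters. It contains CG, and the members' promoters were mostly rich in G and C: 58.4% in Fos, 61.2% in Jun, 64.4% in Fosl2, 66.4% in Junb and 68.8% in Fosb, but 47.6% in Jund, beside a median of 52.4% over all promoters. The part of base composition in this share was not tested.

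The same search was made for 18 genes that encode other AP-1 partners (the BATF, JDP2, ATF and MAF groups and NRF2) or regulators of Fos (Srf, Elk1, Elk4 and Creb1). Promoters were present for 15 of them, and a gene counted when any of its promoters matched. TGACG was found in 9: Atf3, Atf4, Batf, Elk4, Jdp2, Maff, Mafg, Mafk and Srf. Over all 27018 genes of the table counted in this way, 19.8% held it. Elk4, Jdp2 and Maff had 3 promoters each, which gave them more chances to match than the many genes with 1. The G and C content of the promoters of these 15 genes was not analysed here. Its part in their share of TGACG was therefore not tested. TGANTCA was found in none of the 15, against 7.82% of all genes. TGACGTCA and TGACATCA each occurred in 1 of the 15, Maff, against 1.77% and 3.41% of all genes. The CArG box occurred in 1, Srf, against 1.62% of all genes. Peaks lie on mm9 and these promoters on GRCm38, so whether a peak covered any of these letters was not analysed here.

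Of the 7 windows, 6 held at least 1 c-FOS peak, and the exception was the window of Fos. Junb had the most, with 18 peaks. Jund followed with 12, Fosl1 with 10, Fosb and Fosl2 with 7 each, and Jun with 1. As background, every whole window of the same length along chromosomes 1 to 19 and X was counted. At least 1 peak was present in 25.4% of windows of 100 kb, 26.7% of those of 110 kb and 29.3% of those of 130 kb. These background windows include gene deserts and unsequenced stretches, whereas each member window was assigned to a gene. Where in its window each gene lies was not analysed here, so distances are given from the window centre and not from a gene start.

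**Figure D1:**
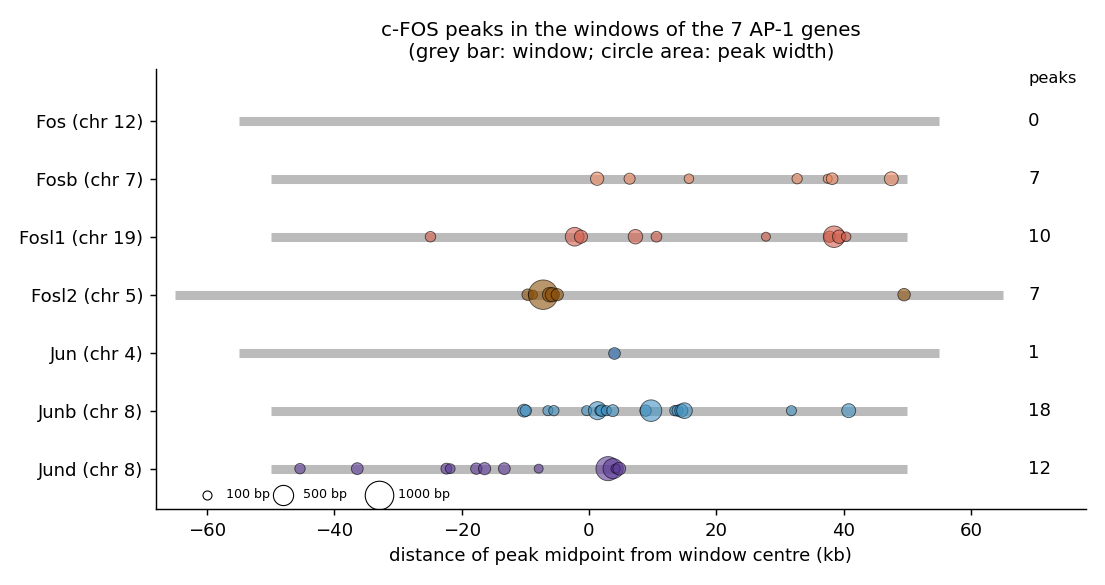
Each row is the window of 1 gene (grey bar, to scale in kb from the window centre); each circle is a listed c-FOS peak at its midpoint, its area proportional to peak width, and the number at the right counts the peaks. The Fos window is empty, the Jun window holds 1 peak, and the Junb window holds 18.

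The windows together held 73.3 peaks per Mb, 13.0 times the genome-wide density of 5.65. By density the order was Junb at 180 per Mb, Jund at 120, Fosl1 at 100, Fosb at 70, Fosl2 at 53.8, Jun at 9.09 and Fos at 0. Without separate replicates, no spread is known by which neighbours in this order could be told apart. Set against their own chromosomes, Junb stood at 16.9 times the chromosome density and Fosb at 15.1 times. The ratio of Fosb was raised by the low density of chromosome 7 (4.65 peaks per Mb), and against the genome it was 12.4. Jund reached 11.3 times, Fosl1 7.57 times and Fosl2 5.04 times. Jun, at 1.53 times the density of chromosome 4, was close to its surroundings. The 4 FOS-type windows together held 24 peaks (54.5 per Mb), and the 3 JUN-type windows 31 (100 per Mb), of which 30 were those of Junb and Jund.

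**Figure D2:**
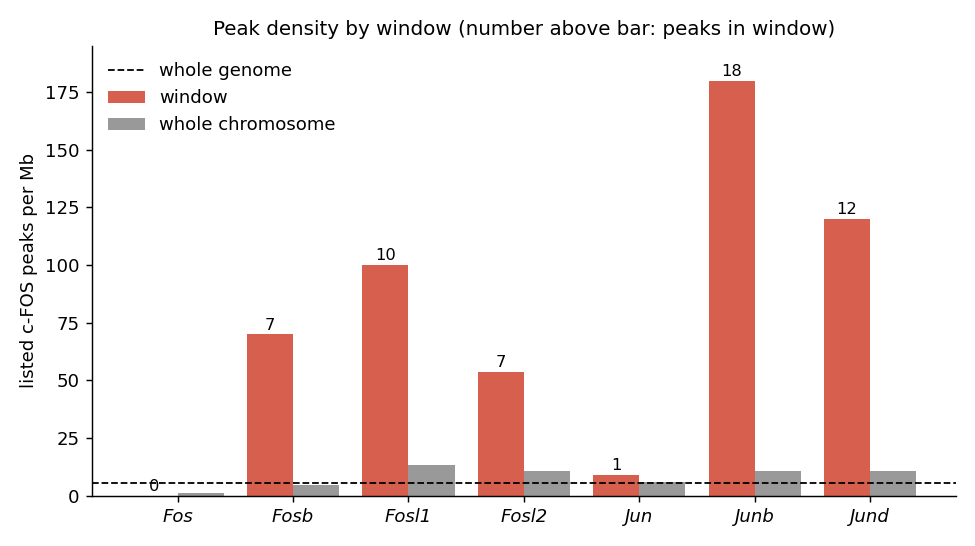
Red bars give listed c-FOS peaks per Mb in each window, grey bars the same for the whole chromosome, and the dashed line the genome (5.65 per Mb); numbers above the red bars count the peaks. Fosb, Fosl1, Fosl2, Junb and Jund stand between 53.8 and 180 per Mb, while Fos is at 0 and Jun at 9.09.

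Fos encodes c-FOS, the protein precipitated here. Its window held no listed peak. It lay inside a stretch of 768 kb without any, chr12:86715341-87483400. The peak before that stretch, chr12:86715206-86715340 and 135 bp wide, was 99.7 kb from the window centre, and the next peak was 614 kb beyond the far edge of the window. Such a stretch was not rare on this sparse chromosome: of 146 gaps between neighbouring peaks on chromosome 12, 34 (23.3%) were at least as long, and 90.7% of its windows of 110 kb were empty. In GRCm38 the nearest protein-coding genes on one side of Fos are Tmed10 and Nek9, and on the other Jdp2 and Batf, which encode further AP-1 partners. The list thus names no c-FOS site beside Fos. Since the caller's threshold and the depth are unknown, weaker binding there was not detectable from the list. The number of copies of chromosome 12 in these cells was not tested.

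Fosb encodes FOSB, an immediate-early subunit that also exists in a shorter spliced form lacking part of the activation region. All 7 of its peaks lay on the higher-coordinate side of the window centre, from 1.28 to 47.5 kb. They were 98 to 238 bp wide, with a median of 151 bp. The widest were chr7:19927371-19927608 (238 bp), chr7:19881170-19881386 (217 bp) and chr7:19918119-19918285 (167 bp). The peak of 217 bp was also the one nearest the centre. Spacing was loose: the closest neighbours, chr7:19917406-19917503 and the peak of 167 bp, were 615 bp apart, and the other gaps ran up to 16809 bp. A further peak had its midpoint 0.127 kb past the window's upper edge, and 100 kb on either side of the centre held 16 peaks. A count of 7 or more was reached by 1.03% of all genome windows of 100 kb. On GRCm38 the genes flanking Fosb are Rtn2 and Ppm1n on one side and Ercc1, a DNA repair nuclease subunit, and Cd3eap on the other, so these peaks cannot be credited to Fosb alone.

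Fosl1 encodes FRA-1, a FOS-type protein without the strong activation region of c-FOS and often abundant in invasive tumour cells. Its window held 10 peaks of 98 to 566 bp, with a median of 184 bp. They formed 2 close groups and 4 lone peaks, where a close group is a run of peaks with gaps of at most 1000 bp. Near the centre stood a pair, chr19:5447534-5447963 (430 bp) and chr19:5448640-5448850 (211 bp, the nearest to the centre at 1.26 kb). Between 37.8 and 40.4 kb above the centre, 4 peaks stood within 2686 bp, chr19:5487743-5490428. They included the widest of the window, chr19:5488202-5488767 (566 bp), which was 302 bp from its neighbour chr19:5487743-5487899. The third in width was chr19:5457170-5457427 (258 bp). At least 10 peaks were found in 0.299% of genome windows of 100 kb, but in 1.47% of those on chromosome 19, which was dense throughout at 13.2 peaks per Mb. Within 500 kb of the centre 96 peaks were listed, the most for any member. Drap1 and Tsga10ip flank Fosl1 on one side in GRCm38, and Ccdc85b and Fibp on the other.

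Fosl2 encodes FRA-2, the remaining FOS-type subunit. Its peaks were tightly gathered: 6 of 7 lay between 9.63 and 4.98 kb below the centre, chr5:32435292-32440107. Among them was chr5:32437267-32438334, which at 1068 bp was the widest in the 7 windows and ranked 7 in width among all 15011 peaks. It was followed by chr5:32438692-32438950 (259 bp), and this by chr5:32439122-32439367 (246 bp) after a gap of 171 bp. The peak nearest the centre, chr5:32439925-32440107 (183 bp), closed the cluster. Around it the list was empty: the preceding 435 kb held no peak, the next peak of the window, chr5:32494383-32494574, came after 54275 bp, and a further 144 kb without a peak followed it. Extending the range from 10 to 250 kb around the centre raised the count from 6 to 8. As many as 7 peaks were present in 1.86% of genome windows of 130 kb, and in 4.60% of those on chromosome 5. The flanking genes in GRCm38 are Babam2 and Rbks, and Plb1 and Ppp1cb.

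**Figure D3:**
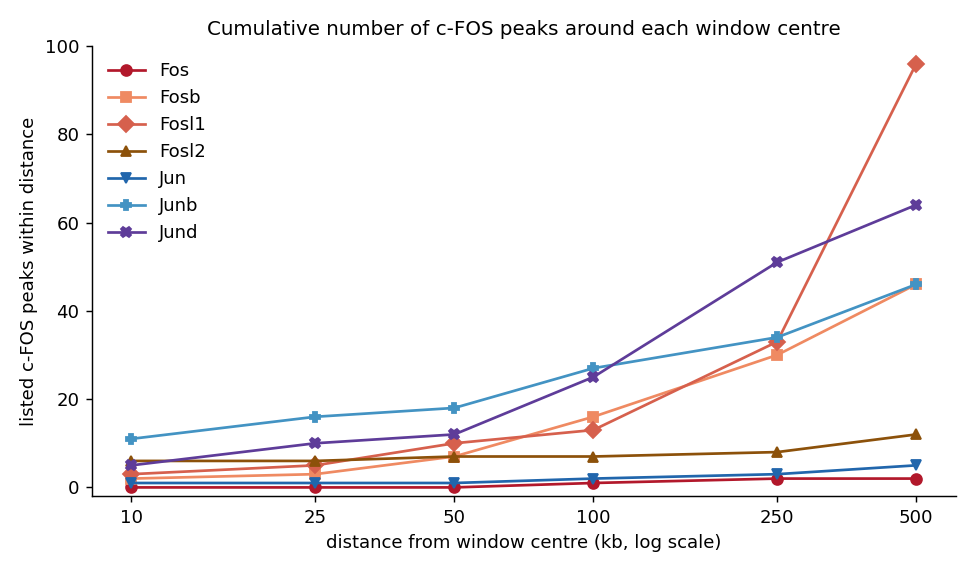
Lines give the number of listed c-FOS peaks within 10, 25, 50, 100, 250 and 500 kb (log axis) of the centre of each window. Fosl2 starts at 6 and reaches 12, Fosl1 climbs from 3 to 96, and Fos reaches 2.

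Jun encodes c-JUN, the classical partner of c-FOS. A lone peak was listed in its window, chr4:94718879-94719046, 168 bp wide and 3.96 kb from the centre. Its width was slightly above the median of all peaks, 158 bp. The list was empty for 73.0 kb before it and 109 kb after it. A window of 110 kb with 1 peak or more is common (the 26.7% given above), so the count for Jun did not stand out from the genome. Mysm1 and Eqtn flank Jun on one side in GRCm38, and Fggy and Hook1 on the other.

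Junb encodes JUNB, a subunit abundant in epidermis and often opposed to c-JUN in its effect on growth. Its 18 peaks were 121 to 572 bp wide, with a median of 160 bp, and 11 of them lay within 10 kb of the centre. Only 8 of 26378 genome windows of 100 kb (0.0303%) held as many, and 0.152% of those on chromosome 8. Peaks stood in 5 close groups, which took in 15 of the 18. The largest group, chr8:87501138-87503813, held 5 peaks within 2676 bp, and another, chr8:87513458-87515161, held 4 within 1704 bp. The widest peaks were chr8:87509460-87510031 (572 bp), chr8:87501138-87501538 (401 bp) and chr8:87514860-87515161 (302 bp). The peak of 401 bp and its neighbour chr8:87501643-87501763 were 104 bp apart, the smallest gap in this window. The peak nearest the centre, chr8:87499575-87499697, was one of the narrower ones at 123 bp. Prdx2 and Rnaseh2a lie on one side of Junb in GRCm38, and Hook2 and Best2 on the other. Which of these genes each group lay beside was not analysed here.

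Jund encodes JUND, the JUN-type subunit that is expressed broadly and little induced by growth factors. Its 12 peaks were 98 to 715 bp wide, with a median of 166 bp. The pattern had a compact part and a scattered part. In the compact part, 4 peaks stood within 2231 bp, chr8:73222635-73224865. They comprised the 3 widest of the window, chr8:73222635-73223349 (715 bp, and the nearest to the centre), chr8:73223538-73224037 (500 bp) and chr8:73224665-73224865 (201 bp). Between the last 2 of these lay chr8:73224135-73224238, after a gap of 97 bp that was the smallest in any of the 7 windows. The other 8 peaks were spread between 45.4 and 7.90 kb below the centre and were 98 to 183 bp wide. A count of 12 or more was found in 0.171% of genome windows of 100 kb and in 0.683% of those on chromosome 8. Peaks went on beyond the window, with 25 listed within 100 kb of the centre (125 per Mb) and 51 within 250 kb (102 per Mb). In GRCm38, Lsm4 and Pgpep1 flank Jund on one side and Iqcn and Pde4c on the other.

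Peaks of the family windows had ordinary widths but included several wide ones. Their median was 166 bp (quartiles 130 and 218), against 158 bp (119 and 225) in the whole list, and 32 of 55 were wider than the list's median. Peaks wider than 500 bp numbered 4 of 55, or 7.27%, beside 1.75% of the list. They were 1 each in the windows of Fosl1, Fosl2, Junb and Jund. The narrowest listed width, 98 bp, was shared by 3 of 55 peaks, or 5.45%, beside 10.7% of the list. All 4 wide peaks stood in close groups, whose peaks are not independent of each other. These shares therefore carry no interval, and their differences from the list were not tested. Shares of wide peaks in other dense windows are given below.

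**Figure D4:**
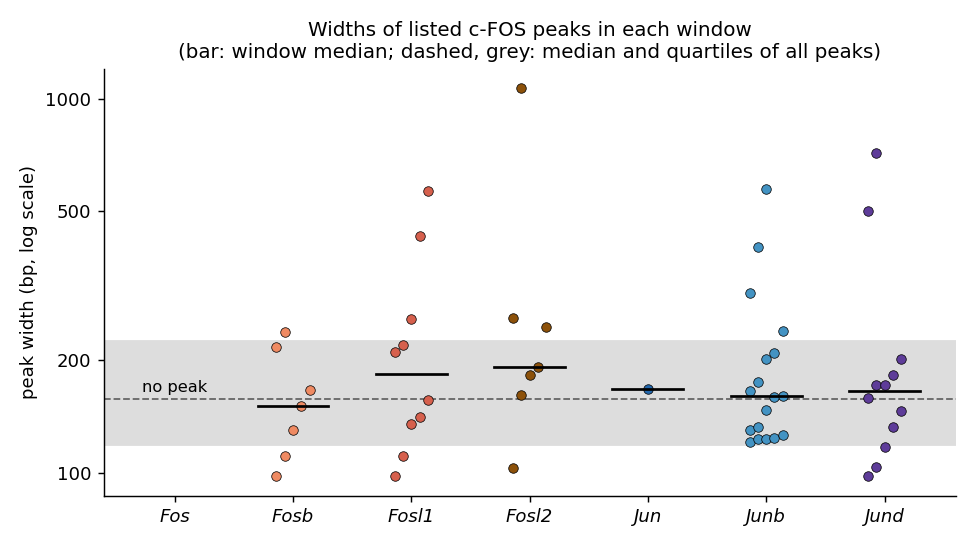
Points are the widths in bp (log axis) of the listed c-FOS peaks in each window, black bars the window medians; the dashed line and grey band are the median (158 bp) and quartiles (119 and 225 bp) of all peaks. The widest points are those of Fosl2 (1068 bp), Jund (715 bp), Junb (572 bp) and Fosl1 (566 bp).

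Close spacing was common among these peaks. A neighbour within 1000 bp was found for 35 of 55, or 63.6%, beside 24.9% of the list. These 35 peaks made up 12 close groups and are not independent of each other, so the share carries no interval and its difference from the list was not tested. By gene this was 15 of 18 peaks for Junb, 6 of 7 for Fosl2, 6 of 10 for Fosl1, 6 of 12 for Jund and 2 of 7 for Fosb. Dense regions elsewhere were closely spaced too. In the 272 genome windows of 100 kb with at least 7 peaks, the count of Fosb, 45.2% of 2507 peaks had such a neighbour. Of the same peaks, 2.67% were wider than 500 bp. In the 79 windows with at least 10 peaks, these shares were 52.7% and 3.15% of 1017 peaks. In the 8 windows with at least 18 peaks, the shares were 69.2% and 4.07% of 172 peaks. This comparison was added after the values were seen, and these windows can include parts of those of the family.

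How peaks were counted changed the order of the genes. When peaks within 1000 bp were merged, Junb and Jund had 8 regions each, Fosb and Fosl1 6 each, Fosl2 3 and Jun 1. Among peaks wider than the list's median, Junb kept the most with 10, followed by Jund with 7, Fosl2 with 6, Fosl1 with 5, Fosb with 3 and Jun with 1. Fos had 0 in each case.

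**Figure D5:**
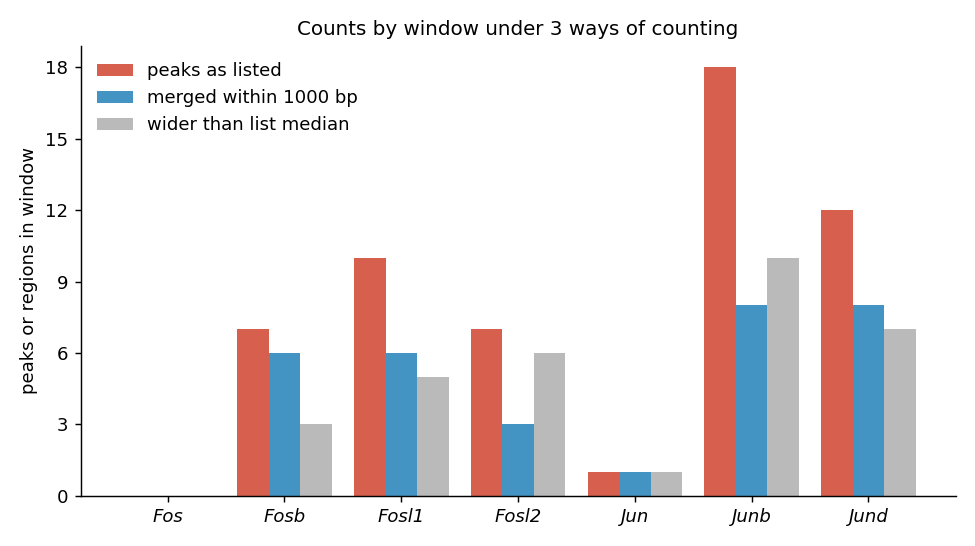
Bars give the number in each window of c-FOS peaks as listed (red), of regions after merging peaks within 1000 bp (blue) and of peaks wider than the list's median (grey). Junb leads as listed with 18, and equals Jund at 8 once close peaks are merged.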

How the data were processed

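c-FOS was measured by ChIP-seq in 2 samples with 1 input. Per the submitters' processing notes, Bowtie2, MACS2 and the mm9 build were used by the authors for alignment and peak calling. Not given in the sources used here are tool versions, the calling threshold, whether the input served as control, and how both ChIP samples were joined. The deposited values are the start and end of each peak in bp. They are printed 1-based on mm9.

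Peaks were assigned to windows by midpoint, with pandas 2.3.3 and numpy 2.4.6 under Python 3.11.15; intervals used scipy 1.17.1. Background windows did not overlap and used mm9 chromosome lengths from GenomeInfoDb 1.38.1 (R 4.3.3). Counting was tested on simulated data. No test was run, since 1 list gives no replicates. Gaps were measured between peak edges. Promoters and the order of genes came from RefSeq tables of GRCm38.p6, used for sequences and names only. Predicted genes and those known by clone names were left out of the order. An mm9 genome, mm9 annotation and protein sequences were not used here, so the planned protein comparison was not run. All 7 genes were named. In windows with more than 6 peaks, the 3 widest, the closest pair and the peak nearest the centre were given by position, and other peaks were added where they bound a group. The members and lists were chosen with earlier results of these data known. Figures were drawn with matplotlib 3.10.9.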

Additional observations from a re-analysis of the deposited data

How the results depend on the processing

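Of 82 recomputed values, 52 stayed within 1.5 times a count or within the interval of a share, density or median, and 30 moved. The intervals of density and median treat peaks as independent, which those of close groups are not. They may thus be too narrow, and this tally is a rough guide. With windows as given, merging peaks within 1000 bp or keeping peaks wider than the median each left 32 of 55 peaks (42.7 per Mb). Merging left 6 regions for Fosl1, 3 for Fosl2 and 8 for Junb. Wider peaks alone left 3 for Fosb, 5 for Fosl1, 10 for Junb and 7 for Jund. Widening windows by 50 kb on both sides gave 91 peaks: Fos 1, Fosb 16, Jun 2 and Jund 25 were the genes that moved. Narrowing by 20 kb left Fosb 3 and Fosl1 6. These shifts follow from counting fewer peaks or other lengths. The Fos window stayed at 0 except when widened.

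The share of background windows with as many peaks moved when restricted to the same chromosome: Fosb 0.393%, Fosl1 1.47%, Fosl2 4.60%, Jun 30.7%, Junb 0.152% and Jund 0.683%. Among windows with at least 1 peak the shares were 4.05%, 1.18%, 6.36%, 100%, 0.119% and 0.671% in the same order. Leaving out empty windows only lowers the number of windows compared, so these shares had to rise. The 100% of Jun follows from its count of 1. These values are part of those counted as moved above. No paired analysis was possible because the list names no replicate. For the same reason no replicate could be left out, and the depth that limits detection is unknown.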
